A study of Mus musculus with 6 samples.

Results

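Expression of 35 mouse genes of base excision, nucleotide excision and mismatch repair was examined in haematopoietic stem and progenitor cells labelled as lacking Runx1 and Runx3. The genes were listed by their role in repair and looked up by symbol in the deposited table, and 34 of the 35 were measured by a probe set with a single symbol, among 19938 genes tested. Of these 34, 10 encode DNA glycosylases, 6 act in later steps of base excision, 13 in nucleotide excision and 5 in mismatch repair. Tdg, a glycosylase for thymine and uracil opposite guanine, lay only in probe sets shared with a pseudogene and was not analysed here.

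The cells were cKit+Sca1+Lin- (KSL) bone marrow cells of mice backcrossed to C57BL/6 for at least 3 generations, measured on 1 Affymetrix GeneChip Mouse Gene 1.0 ST array per sample. The DKO group held 3 samples of mice with the genotype Runx1fl/fl;Runx3fl/fl;Mx1-Cre+, and the WT group held 3 samples of littermates with the genotype Runx1fl/fl;Runx3fl/fl;Mx1-Cre-, so both groups carried the floxed alleles. The labels' protocols give the same 600 µg injections of pIpC, a double-stranded RNA analogue that switches on the interferon-responsive Mx1-Cre, on 7 alternate days from 4 weeks of age for both. The labels describe the KSL cells of every sample as untreated. The interval between the last injection and cell collection was not stated. Each WT sample was pooled from 3 mice, pooling of DKO samples was not stated, and a total of 6 mice in the series description does not match such pools. Effects of the deletion and of the Mx1-Cre transgene cannot be told apart.

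Base excision repair removes small lesions such as oxidised, deaminated or alkylated bases: a glycosylase cuts out the base, an endonuclease opens the strand, and a polymerase and ligase fill the gap. Nucleotide excision repair cuts out a short stretch of strand around bulky, helix-distorting damage, found either by sensors that scan the genome or by stalled RNA polymerase. Mismatch repair corrects replication errors. In mice, loss of Ercc1 limits blood stem cells, and loss of mismatch repair predisposes to lymphoma.

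Signals are given on the log2 scale, so that a difference of 1 is a 2-fold change, and each difference is DKO minus WT. Correlations between arrays over all genes were 0.993 to 0.995 within DKO, 0.989 to 0.991 within WT and 0.976 to 0.98 between the groups. Runx1 signal averaged 9.29 ± 0.08 in DKO and 8.47 ± 0.08 in WT (SD, n = 3 each), higher in the samples labelled as deleted (difference 0.82, limma adjusted p = 0.000427). Runx3 averaged 7.38 ± 0.03 in DKO and 7.53 ± 0.06 in WT. A gene-level signal includes probes outside any deleted exons and so does not check a deletion, and DKO below means the samples labelled DKO. Of 5 KSL markers 4 were measured, without Ly6a, which encodes Sca1, and 3 passed the test. Kit was at 10.49 ± 0.20 in DKO and 9.75 ± 0.11 in WT and Slamf1 at 7.38 ± 0.09 in DKO and 5.43 ± 0.32 in WT, while Flt3 fell by 1.32 (8.09 ± 0.30 in DKO, 9.41 ± 0.11 in WT, limma adjusted p = 0.000434). Cd34 did not pass (10.40 ± 0.12 in DKO, 10.37 ± 0.12 in WT). Of 14 measured markers of T, B, erythroid and granulocyte-macrophage cells 1 passed the test, the erythroid regulator Klf1, which fell by 0.54 (adjusted p = 0.0136). The mean signal of the 5 granulocyte and macrophage markers was 5.23 to 5.32 in DKO and 5.25 to 5.86 in WT, and that of the 5 T cell markers 4.80 to 4.90 in DKO and 4.74 to 4.92 in WT. The 2 erythroid markers averaged 5.65 to 5.91 in DKO and 5.94 to 6.09 in WT, and the 2 B cell markers 3.76 to 4.00 in DKO and 3.98 to 4.11 in WT. The part of these markers in the results was not tested.

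Most repair genes differed little between the groups. With limma and Benjamini-Hochberg adjustment over all 19938 genes at a threshold of 0.05, 3 of 34 members passed, or 8.82%, against 17.4% of all genes. The mismatch repair gene Mlh3 rose, where 9.71% of all genes did, and the base excision genes Nthl1 and Xrcc1 fell, where 7.69% of all genes did. With DKO replicate 1, 2 or 3 left out, 0 of the 34 members passed. Calls over all genes also became fewer with 1 array left out. Then 1250 to 1868 genes were higher and 843 to 1388 lower in DKO, against 1936 and 1533 with all arrays. The lowest of these counts came without DKO replicate 3 (1250 higher) and without DKO replicate 1 (843 lower). The loss of calls was therefore not confined to repair genes. DKO and WT values did not overlap for 10 members (29.4%), 2 of them higher and 8 lower in DKO, against 35.8% of all genes, and 10 members had an unadjusted p under 0.05 (29.4%, against 30.9% of all genes). The median difference of the members was -0.05, and that of all genes -0.04. Since whole cell populations were measured, fewer cells of a type and less RNA per cell cannot be told apart.

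The size of the changes was bounded for most members, as for most genes. The 95% interval of the difference lay within 1 of zero on the log2 scale, that is within a 2-fold change, for 33 of 34 members, the exception being Mlh3, and within 0.5 of zero for 26. Over all 19938 genes it lay within 1 of zero for 19092 and within 0.5 for 13797. The absolute difference was under 0.25 for 27 of 34 members (79.4%), against 70.2% of all genes. Differences ran from -0.47 for Xpc to 0.69 for Mlh3.

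**Figure D1:**
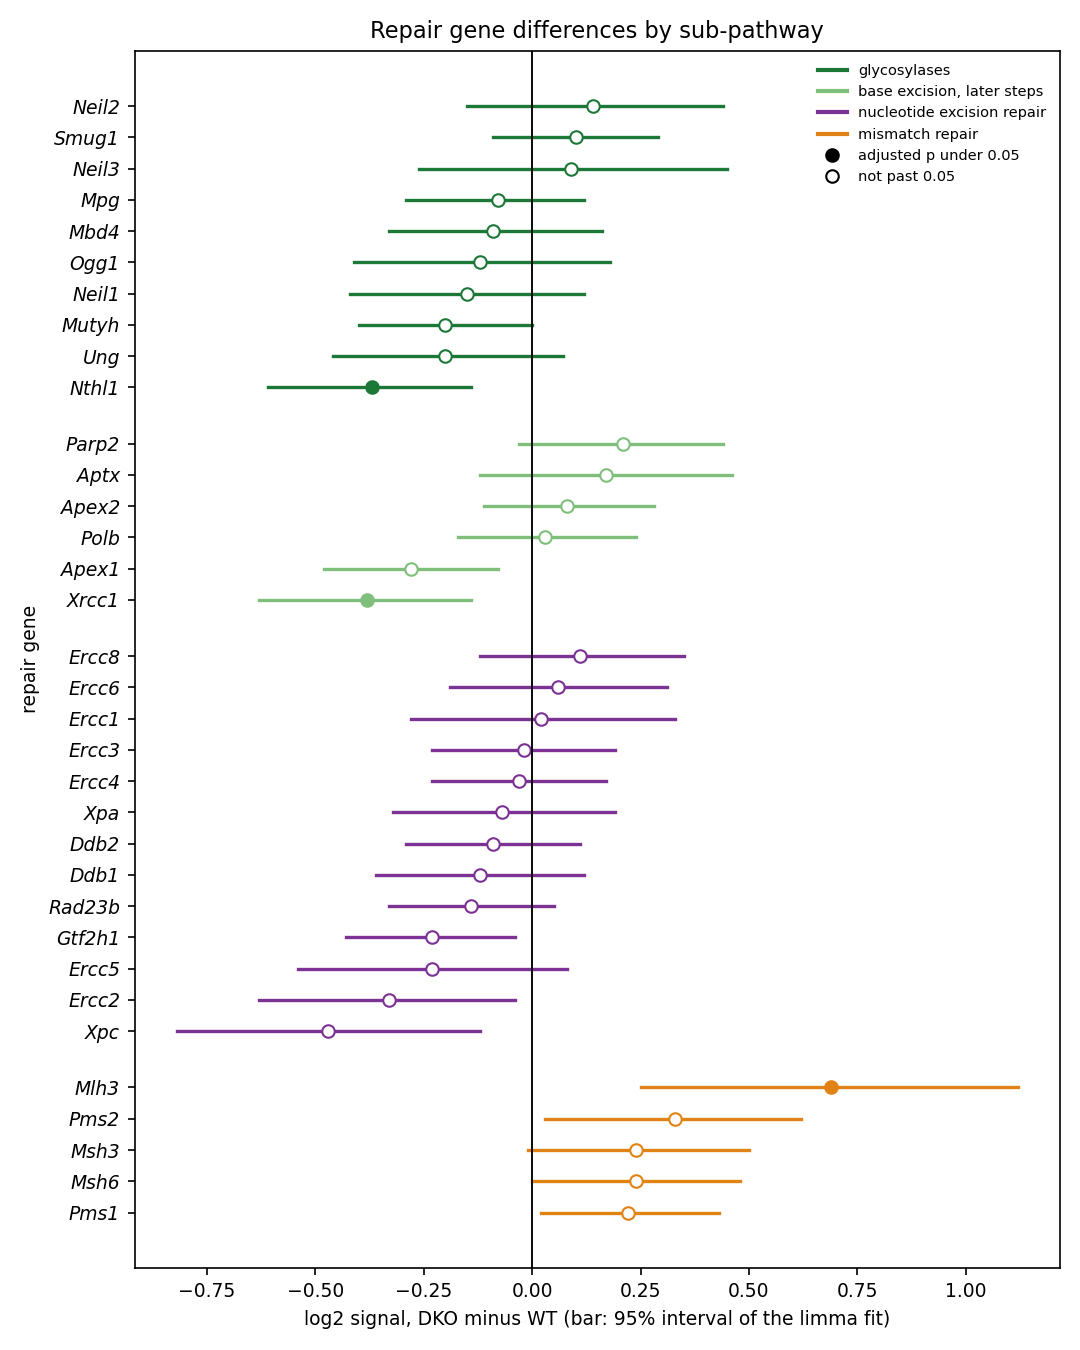
Differences of the 34 measured repair genes (horizontal axis: log2 signal, DKO minus WT; vertical axis: genes by sub-pathway). Points are differences and bars 95% intervals of the limma fit; filled points passed an adjusted p of 0.05, which Nthl1 (-0.37), Xrcc1 (-0.38) and Mlh3 (0.69) did, and all 5 mismatch repair genes lie right of zero.

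The promoters of the 3 genes that passed are shown because Runx1 and Runx3 bind DNA. The windows run from 250 bases before to 50 bases after the RefSeq start of the gene in GRCm38.p6, 5′ to 3′ on the gene's own strand, with matches to TGTGGT or TGCGGT (letters of RUNX sites), TTCCCGC (letters of E2F sites) and GGGCGG (a GC box) on either strand in capitals. They lie at chr17:24632432-24632731, plus strand, for Nthl1, at chr7:24546449-24546748, plus strand, for Xrcc1, and at chr12:85270550-85270849, minus strand, for Mlh3, for which a second RefSeq window nearly the same as this is not shown.
Nthl1: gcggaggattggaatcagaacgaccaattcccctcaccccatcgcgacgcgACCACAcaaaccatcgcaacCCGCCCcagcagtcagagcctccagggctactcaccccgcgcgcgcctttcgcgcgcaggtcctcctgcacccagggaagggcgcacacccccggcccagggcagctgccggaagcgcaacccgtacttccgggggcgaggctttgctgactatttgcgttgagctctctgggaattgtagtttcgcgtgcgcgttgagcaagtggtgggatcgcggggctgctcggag
Xrcc1: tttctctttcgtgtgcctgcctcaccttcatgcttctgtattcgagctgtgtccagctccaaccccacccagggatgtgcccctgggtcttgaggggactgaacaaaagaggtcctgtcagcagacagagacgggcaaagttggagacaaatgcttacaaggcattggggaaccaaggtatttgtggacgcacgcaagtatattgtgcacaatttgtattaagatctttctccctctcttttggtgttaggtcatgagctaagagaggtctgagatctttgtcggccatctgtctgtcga
Mlh3: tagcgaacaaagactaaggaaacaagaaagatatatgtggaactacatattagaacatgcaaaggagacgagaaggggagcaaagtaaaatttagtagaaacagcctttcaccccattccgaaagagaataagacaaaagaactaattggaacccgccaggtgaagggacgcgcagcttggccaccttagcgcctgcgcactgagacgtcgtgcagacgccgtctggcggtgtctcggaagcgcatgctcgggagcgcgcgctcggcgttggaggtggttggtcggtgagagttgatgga

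The Nthl1 window holds 1 TGTGGT, found on the opposite strand, and 1 GC box, while the Xrcc1 and Mlh3 windows hold 0 of the 4 motifs. Promoter windows were found for 29 of the 35 genes, 32 windows in all, which can overlap where a gene has more than 1. TGTGGT was present in 5 of them (15.6%, in Apex1, Ercc1, Ercc6, Mutyh and Nthl1), against 16.8% of all 32851 windows, and TGCGGT in 0, against 6.45%. TTCCCGC was present in 5 (15.6%, in Ercc5, Gtf2h1, Mbd4, Msh6 and Pms1), against 4.6% of all windows, and the GC box in 22 (68.8%), against 35.7%. These are matches of letters and not binding sites.

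Among the glycosylases, 1 of 10 fell, 0 rose and 9 did not pass, 10% called against 17.4% of all genes. Their median difference was -0.10, against -0.04 over all genes. Nthl1, which removes oxidised pyrimidines such as thymine glycol, had signals of 6.35, 6.25 and 6.22 in DKO samples and 6.46, 6.72 and 6.77 in WT samples. All 3 DKO values lay below all WT values. Nthl1 fell 0.772-fold (difference -0.37, SE 0.104, limma adjusted p = 0.0364). The call was lost under 11 of 19 other settings, among them each of 4 other ways of scaling and omission of DKO replicate 1, 2 or 3 or WT replicate 2 or 3. Over all settings the adjusted p lay between 0.0116 and 0.124 and the difference between -0.47 and -0.31.

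Mutyh, which removes adenine paired with 8-oxoguanine, had the second smallest p of the glycosylases, with signals of 5.82, 5.84 and 5.88 in DKO samples and 6.08, 5.93 and 6.14 in WT samples. The groups did not overlap, and the difference of -0.20 did not pass (adjusted p = 0.154). Ogg1, which removes 8-oxoguanine itself, differed by -0.12 (6.94 ± 0.09 in DKO, 7.06 ± 0.26 in WT, adjusted p = 0.597). The WT values spread between 6.78 in replicate 1 and 7.30 in replicate 2, and the difference was -0.25 without replicate 1 and 0.01 without replicate 2. Ung and Smug1, which remove uracil, differed by -0.20 and 0.10 (adjusted p = 0.298 and 0.473). Mpg, for alkylated purines, differed by -0.08 and Mbd4, for thymine opposite guanine at methylated CpG sites, by -0.09 (adjusted p = 0.577 and 0.647).

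The NEIL glycosylases, which remove oxidised bases, did not pass. Neil1 differed by -0.15 (adjusted p = 0.45), and Neil2 by 0.14 (adjusted p = 0.511) with signals below the lower quartile of all genes on all 6 arrays, so that any change of Neil2 may be understated. Neil3, expressed mainly in dividing cells, had signals of 8.20, 7.63 and 8.25 in DKO samples and 8.0, 8.0 and 7.80 in WT samples. DKO replicate 2 was the lowest of the 6 arrays and the other DKO arrays the highest. The difference of 0.09 (adjusted p = 0.73) was 0.29 without DKO replicate 2 (adjusted p = 0.127, with 0.982 as the highest of any setting), and -0.01 with quantile normalisation or cyclic loess.

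The same array was low in genes of S phase and mitosis. The mean of 19 such genes was 8.53, 8.07 and 8.54 in DKO samples and 8.41, 8.61 and 8.40 in WT samples, and DKO replicate 2 held the lowest DKO value for 19 of 19 of them, against 14 of 34 repair genes and 32.8% of all genes. Of these 19 genes 1 rose and 1 fell in DKO, 10.5% called against 17.4% of all genes. Their median difference was -0.10, against -0.04 over all genes. The part of cell division in the Neil3 values was not tested.

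**Figure D2:**
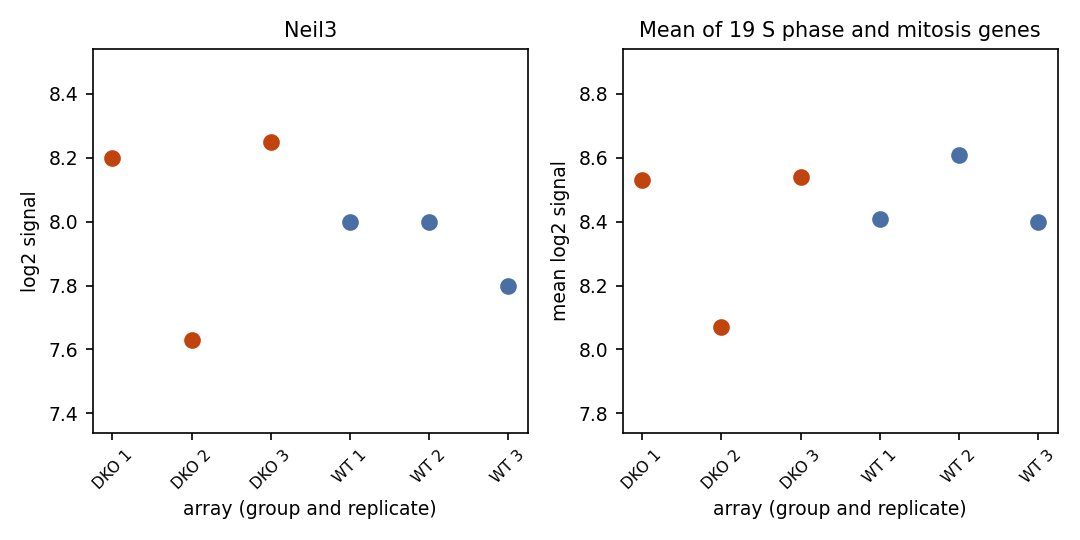
Neil3 (left) and the mean of 19 S phase and mitosis genes (right) on each array (vertical axes: log2 signal, on different ranges; horizontal axes: group and replicate, DKO left of WT). DKO replicate 2 has the lowest value in both panels, 7.63 and 8.07.

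In the later steps of base excision, 1 of 6 genes fell, 0 rose and 5 did not pass, 16.7% called against 17.4% of all genes. Their median difference was 0.06, against -0.04 over all genes. Xrcc1, the scaffold that gathers the enzymes of single-strand break repair, had signals of 7.49, 7.25 and 7.38 in DKO samples and 7.95, 7.66 and 7.68 in WT samples. The groups did not overlap, and WT replicate 1 was the highest array. Xrcc1 fell 0.766-fold (difference -0.38, SE 0.109, adjusted p = 0.0383). The call was lost under 7 of 19 other settings, including median centring and omission of DKO replicate 1, 2 or 3 or WT replicate 1 or 3. Over all settings the adjusted p lay between 0.0223 and 0.132 and the difference between -0.45 and -0.29.

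Apex1, the main endonuclease that opens the strand at a site without a base, had signals of 8.56, 8.48 and 8.69 in DKO samples and 8.86, 8.87 and 8.85 in WT samples. All DKO values lay below all WT values, and the difference of -0.28 just missed the threshold (SE 0.0886, adjusted p = 0.0603). It depended on the scaling, being -0.44 and past the threshold with quantile normalisation (adjusted p = 0.00704) and -0.41 with cyclic loess (0.00928), but -0.23 with median centring (0.119). The highest adjusted p of any setting was 0.19. It also passed without the dimmest 25% (0.0461) or 50% (0.0369) of genes. Its relative Apex2 differed by 0.08 (adjusted p = 0.569).

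Polb, the gap-filling polymerase, had a difference of 0.03 with a 95% interval of -0.17 to 0.24 (7.51 ± 0.06 in DKO, 7.48 ± 0.11 in WT, adjusted p = 0.836). Parp2, which senses strand breaks, differed by 0.21 (adjusted p = 0.213), with the WT replicate 2 signal of 8.54 inside the DKO range of 8.47 to 8.61. It was 0.05 with quantile normalisation and 0.08 with cyclic loess. Aptx, which clears failed ligation ends, differed by 0.17 (adjusted p = 0.417), which was 0.03 without WT replicate 2 and 0.27 without WT replicate 3.

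Of 13 nucleotide excision repair genes 0 rose, 0 fell and 13 did not pass, 0% called against 17.4% of all genes. An unadjusted p under 0.05 (limma) was found for 3 of the 13, beside 6168 of 19938 genes (30.9%). Under other settings up to 2 of the 13 fell. The median difference of the 13 genes was -0.09, against -0.04 over all genes. It depended on the scaling, being -0.18 with quantile normalisation, -0.17 with cyclic loess and -0.05 with median centring. Negative differences numbered 10 of 13, beside 11548 of 19938 over all genes, a count of members that was 8 with median centring and 8 to 11 with 1 array left out. The replicate SD was larger in WT than in DKO for all 13, and for 60.8% of all genes.

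Among the genes that recognise damage across the genome, Xpc, the sensor of distorted helices, had signals of 7.36, 7.49 and 7.53 in DKO samples and 8.32, 7.81 and 7.66 in WT samples. WT replicate 1 stood above the other arrays, and the groups did not overlap. The difference of -0.47 did not pass (SE 0.154, adjusted p = 0.0662). It was -0.28 without WT replicate 1 (adjusted p = 0.107) and -0.60, past the threshold, without WT replicate 3 (0.0327). Xpc also passed with quantile normalisation (0.0461), with cyclic loess (0.0369), with a trend over signal and gene span removed (0.0454) and without the dimmest 50% of genes (0.0463), and its highest adjusted p was 0.187. Rad23b, which stabilises Xpc, differed by -0.14 (adjusted p = 0.313) and had no overlap between groups, with 8.15 to 8.18 in DKO and 8.22 to 8.40 in WT. Ddb1 and Ddb2, the pair that binds ultraviolet damage, differed by -0.12 and -0.09 (adjusted p = 0.505 and 0.529).

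Ercc6 and Ercc8, which couple repair to stalled RNA polymerase, differed by 0.06 and 0.11 (adjusted p = 0.761 and 0.505), with 95% intervals of -0.19 to 0.31 and -0.12 to 0.35. Of the genes that open and verify the damaged stretch, Gtf2h1, a subunit of the helicase complex TFIIH, had signals of 7.82, 7.85 and 7.93 in DKO samples and 8.09, 8.18 and 8.02 in WT samples. The groups did not overlap, and the difference of -0.23 did not pass (adjusted p = 0.101). It passed at -0.34 with quantile normalisation (0.0207) and cyclic loess (0.0203) and at -0.32 with the trend removed (0.0361), and its highest adjusted p was 0.252.

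Ercc2, the TFIIH helicase that checks for damage, had signals of 5.78, 5.70 and 5.79 in DKO samples and 5.90, 6.40 and 5.97 in WT samples. All DKO values lay below all WT values. Its difference of -0.33 did not pass (adjusted p = 0.114) and was -0.18 without WT replicate 2, the highest array (adjusted p = 0.236; 0.0576 to 0.253 over all settings). Ercc3, the other TFIIH helicase, and Xpa, which verifies the lesion, differed by -0.02 and -0.07 (adjusted p = 0.918 and 0.743).

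The nucleases that cut on either side of the damage did not pass either. Ercc1 and Ercc4, which form 1 of the 2 nucleases, differed by 0.02 and -0.03 (adjusted p = 0.935 and 0.867), with 95% intervals of -0.28 to 0.33 and -0.23 to 0.17. Ercc5, the other nuclease, differed by -0.23 (6.84 ± 0.05 in DKO, 7.07 ± 0.30 in WT, adjusted p = 0.3). It was -0.08 without WT replicate 1 and -0.38 without WT replicate 2 (adjusted p = 0.697 and 0.058).

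Among the 5 mismatch repair genes 1 rose, 0 fell and 4 did not pass, 20% called against 17.4% of all genes. The differences of all 5 were positive, beside 8390 of 19938 over all genes. They ran from 0.22 to 0.69 with a median of 0.24, against -0.04 over all genes, and kept their sign under all 19 other settings. Many of these settings could not change a sign. Thresholds, filters of dim genes, probe set rules, trend and robust eBayes settings and the replicate block leave a member's difference as it is. Mlh3, which acts in meiotic crossing over and as a minor partner in mismatch repair, had signals of 6.67, 6.70 and 6.71 in DKO samples and 5.64, 5.83 and 6.54 in WT samples. The DKO values lay within 0.03 of each other, whereas WT replicate 3 was close to them and the other WT arrays were lower. Mlh3 rose 1.61-fold (difference 0.69, SE 0.193, 95% interval 0.25 to 1.12, adjusted p = 0.0369).

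The Mlh3 call did not hold with most single arrays left out, and its difference moved with the WT arrays. The call was lost without DKO replicate 1, 2 or 3 (adjusted p = 0.0952, 0.0949 and 0.109), at differences of 0.70, 0.69 and 0.68. It was also lost without WT replicate 1 or 2 (0.0902 at a difference of 0.51, and 0.0975 at 0.60). Without WT replicate 3 the difference was 0.96 (0.00102). Other scalings, filters and models kept Mlh3 past the threshold of 0.05.

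Pms2, the endonuclease subunit that nicks the new strand, had signals of 7.29, 7.31 and 7.39 in DKO samples and 6.97, 7.30 and 6.75 in WT samples, with WT replicate 2 inside the DKO range. The difference of 0.33 did not pass (adjusted p = 0.129), but did without WT replicate 2 (0.47, adjusted p = 0.0175). Without WT replicate 3 it was 0.20 (0.339, the highest of any setting). Pms1, a related protein whose role in repair is minor, had signals of 7.81, 7.63 and 7.86 in DKO samples and 7.54, 7.56 and 7.53 in WT samples. The groups did not overlap, and the difference of 0.22 did not pass (adjusted p = 0.133) and was 0.07 with the trend over signal and span removed.

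The mismatch sensors gave similar values. Msh6, for single mispairs, had signals of 8.92, 8.72 and 8.94 in DKO samples and 8.60, 8.79 and 8.48 in WT samples, a difference of 0.24 (adjusted p = 0.166) that was 0.07 with quantile normalisation. Msh3, for larger loops, had 7.50, 7.36 and 7.70 in DKO samples and 7.11, 7.36 and 7.35 in WT samples, also a difference of 0.24 (adjusted p = 0.18). In both genes 1 WT array reached the DKO range.

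**Figure D3:**
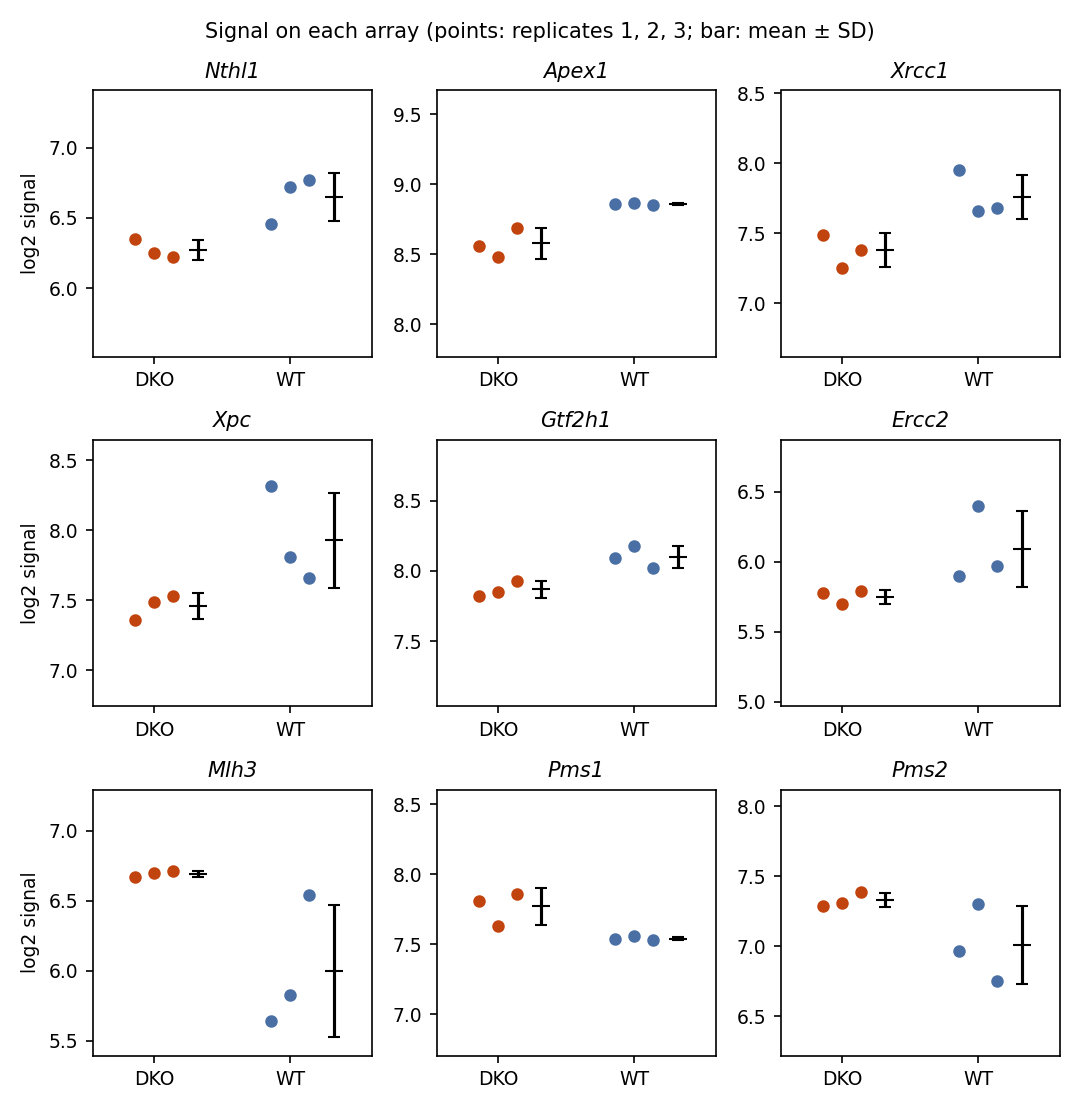
Signals of 9 repair genes on each array (vertical axes: log2 signal, each spanning the same width; horizontal axis: DKO left of WT). Points are replicates 1, 2 and 3 and bars mean ± SD; Mlh3 shows 3 DKO values near 6.7 beside WT values of 5.64, 5.83 and 6.54.

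Most members, as most genes, varied more among WT than among DKO samples. The SD was larger in WT for 28 of 34 members (82.4%), against 60.8% of all genes. The median SD of the members was 0.0775 in DKO and 0.157 in WT, and that of all genes 0.0985 in DKO and 0.125 in WT. The range over the 3 arrays exceeded 0.5 for 1 member in DKO, Neil3, and for 7 members in WT, among them Mlh3 (0.89), Xpc (0.66), Ercc5 (0.60) and Pms2 (0.56). The share of all genes with such ranges was not counted. No WT array was the lowest for most members, the lowest WT value falling in replicates 1, 2 and 3 for 12, 10 and 12 members.

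**Figure D4:**
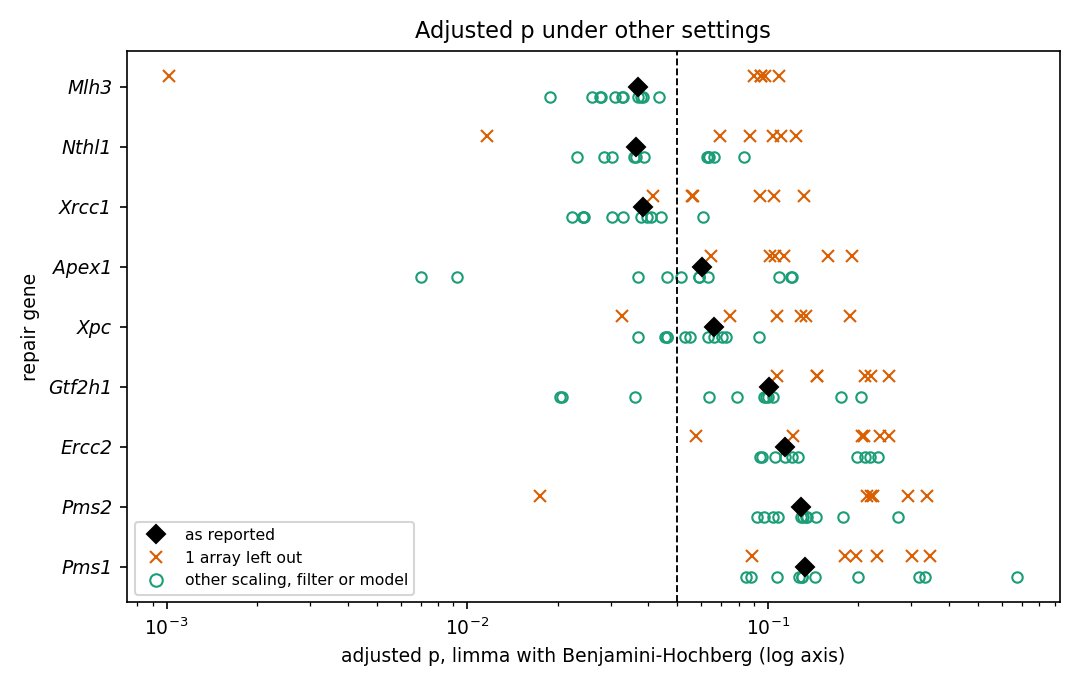
Adjusted p of 9 repair genes (horizontal axis, log scale; vertical axis: genes) as reported (diamonds), with 1 array left out (crosses) and under other scalings, filters or models (circles); the dashed line marks 0.05. Crosses for Mlh3, Nthl1 and Xrcc1 lie on both sides of the line.

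Of 39 further genes of these pathways, 36 were measured, of which 6 rose, 4 fell and 26 did not pass, 27.8% called against 17.4% of all genes, with a median difference of 0.05. The list was chosen with earlier results of these data known, so this share is not a test of these pathways. The count of rises was 3 without DKO replicate 3 and the count of falls 2 without DKO replicate 1, 2 or 3 or WT replicate 3. The 6 with the smallest p are named, and Pold3 and Pold4 beside Pold1 and Pold2. Hmgb1, a chromatin protein that can take part in base excision and mismatch repair, rose 2.59-fold (9.11 ± 0.06 in DKO, 7.74 ± 0.33 in WT, adjusted p = 0.000427), and it has many near-identical copies in the genome that leave its own share of the signal uncertain. Alkbh3, which reverses alkylation of bases directly, rose 1.52-fold (8.34 ± 0.08 in DKO, 7.74 ± 0.15 in WT, adjusted p = 0.00358), and Cetn2, a partner of Xpc, rose 1.37-fold (8.74 ± 0.06 in DKO, 8.29 ± 0.05 in WT, adjusted p = 0.00609).

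Pold1 and Pold2, the catalytic and an accessory subunit of the polymerase that fills repair gaps and copies the genome, fell by 0.53 and 0.56 on the log2 scale (adjusted p = 0.00276 and 0.0118). Pold1 averaged 7.12 ± 0.07 in DKO and 7.66 ± 0.03 in WT, and Pold2 7.60 ± 0.21 in DKO and 8.15 ± 0.13 in WT. The accessory subunits did not all fall, Pold3 differing by -0.44 and Pold4 by 0.31 (adjusted p = 0.0466 and 0.044). Xab2, which binds Xpa and acts in transcription-coupled repair and splicing, fell by 0.35 (7.32 ± 0.02 in DKO, 7.67 ± 0.04 in WT, adjusted p = 0.0171), a call lost without DKO replicate 1, 2 or 3 or WT replicate 3 (0.0513 to 0.0658; the lowest of any setting was 0.00904).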

How the data were processed

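Per the labels' protocols, RNA of 3 DKO and 3 WT samples was amplified with a NuGEN kit and measured on Mouse Gene 1.0 ST arrays. The authors deposited log2 signals for each probe set. Titles of the samples name gene-level RMA (background correction, quantile scaling and summary of probes) and the design text names preliminary MAS 5.0; array medians of 5.88 to 5.91 on a log2 scale are as RMA gives. The submitters' processing notes list Affymetrix Expression Console 1.0. No genome build was stated.

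Of 35556 probe sets, 21789 had 1 gene symbol, 1621 several and 12146 none. The brightest probe set by mean of the 6 arrays stood for each of 19938 genes, and each measured member had 1. Dim signals were kept. The number of arrays limits the precision. The smallest SD of a difference between 2 arrays was 0.186, so none was a copy.

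DKO minus WT was tested with limma 3.58.1 in R 4.3.3 (lmFit, eBayes, two-sided, 5.52 prior and 4 residual degrees of freedom), with Benjamini-Hochberg adjustment over all genes, and the script was tested on simulated data. Labels call the samples biological replicates, and p-values measure the spread between them. The members and lists were chosen with earlier results of these data known. Values on every array are given for members past the threshold, at least the 2 with the smallest p in each sub-pathway, and Neil3, Msh3 and Msh6, added after their values were seen. Of the further genes the 6 with the smallest p are named, and Pold3 and Pold4, added after their values were seen. Alternatives were other scalings, filters, probe set rules, variance models and thresholds, the replicate number as a block, and leaving out each array. RefSeq promoter windows were matched by symbol.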

Additional observations from a re-analysis of the deposited data

How the results depend on the processing

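With 19 other settings, 572 of 639 values of single members kept their direction and their side of the threshold, 24 lost a call, 15 gained one and 28 changed sign, all 28 for members that had not passed. The direction could not change under thresholds, filters of dim genes, probe set rules, trend and robust eBayes settings or the replicate block. These leave a member's difference as it is. Against 1 member higher and 2 lower in DKO, 4 were lower with quantile normalisation, with cyclic loess, without the dimmest 50% of genes and at a threshold of 0.1, 0 were lower with median centring, and 0 were higher and 0 lower at a threshold of 0.01. With 1 array left out, 0 to 1 were higher and 0 to 1 lower. By sub-pathway, glycosylases lower in DKO were 0 with quantile normalisation, median centring, cyclic loess, the trend over signal and span removed, the replicate block and the threshold of 0.01 (0 to 1 with 1 array left out). Later base excision genes lower in DKO were 2 with quantile normalisation, cyclic loess, without the dimmest 25% or 50% of genes and at 0.1, and 0 with median centring and at 0.01 (0 to 1). Nucleotide excision genes lower in DKO were 2 with quantile normalisation, cyclic loess and the trend removed, and 1 without the dimmest 50% of genes and at 0.1 (0 to 1). Mismatch repair genes higher in DKO were 0 at 0.01 (0 to 1). Of the further pathway genes 3 were higher with quantile normalisation and at 0.01 and 11 at 0.1 (3 to 6), and 1 was lower at 0.01 (2 to 3). Of the S phase and mitosis genes, whose alternatives were chosen after seeing the data, 0 were higher with quantile normalisation, cyclic loess, the trend removed, the block and at 0.01 (0 to 1), and lower were 2 with quantile normalisation, cyclic loess, the trend removed and without the dimmest 25% of genes, 3 without the dimmest 50% and at 0.1, and 0 at 0.01 (0 to 2). Over all genes 1058 were higher and 588 lower at 0.01 (1250 to 1868 and 843 to 1388 with 1 array left out). The cause of these shifts was not tested, except that the thresholds act by construction.

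The sign changed for Neil3 with quantile normalisation (-0.01), cyclic loess (-0.01) and the trend removed (-0.04), for Polb with the same settings (-0.03, -0.02 and -0.02), for Ercc6 with the trend removed (-0.01), for Ercc3 with median centring (0.03), for Ercc1 with quantile normalisation (-0.00) and for Ercc4 with quantile normalisation (0.03), median centring (0.02), cyclic loess (0.04) and the trend removed (0.00). With 1 array left out the ranges of those that changed sign were -0.25 to 0.01 for Ogg1, -0.02 to 0.25 for Neil2, -0.02 to 0.29 for Neil3, -0.15 to 0.03 for Mbd4, -0.02 to 0.08 for Polb, -0.03 to 0.14 for Ercc6, -0.08 to 0.02 for Ercc3, -0.18 to 0.03 for Xpa, -0.14 to 0.11 for Ercc1 and -0.06 to 0.03 for Ercc4. Other members kept their sign but moved by over 1.5 times, the differences over all settings being -0.29 to -0.11 for Ung, -0.26 to -0.08 for Neil1, -0.14 to -0.02 for Mpg, 0.07 to 0.17 for Smug1, 0.05 to 0.15 for Apex2, -0.27 to -0.09 for Rad23b, -0.28 to -0.04 for Ddb1, -0.18 to -0.05 for Ddb2, 0.03 to 0.18 for Ercc8, 0.11 to 0.33 for Msh3, 0.07 to 0.32 for Msh6 and 0.07 to 0.29 for Pms1. The median difference was -0.17 to -0.06 for glycosylases, 0.01 to 0.10 for later base excision genes and 0.16 to 0.33 for mismatch repair genes. Deviations of same-numbered samples from their group means correlated at -0.01, -0.10 and -0.04, which gave no sign of pairing by number. What the numbers mark was not stated, and these values cannot exclude a shared litter or day. With the replicate block 1 member was lower and 1 higher, Nthl1 being at -0.37 with an adjusted p of 0.0639, and the block changed no other member's call. Signals of Neil2 lay below the lower quartile of genes on all arrays, which limits what can be said of it.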
